A study of Prunus persica with 8 samples.

Results

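The distal end of peach scaffold 3, taken here as every gene whose midpoint lies beyond 17.6 Mb, was compared between weeping and standard trees. The rule used position alone, and it gave 804 of the 27864 genes in the deposited table and of the 2932 on scaffold 3, the last of which ends at 21.97 Mb. Of the 804 genes, 633 had enough reads to be tested, 171 did not, and 49 of those 171 had no read in any tree. The last gene outside the boundary, at 17597849 to 17600970, had an adjusted p of 0.851 in edgeR's quasi-likelihood test. The first gene inside it, at 17601962 to 17604476, was called higher in weeping trees, with a log2 fold change of 0.98 and an adjusted p of 0.0405 in the same edgeR test.

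The RNA came from tips of lateral shoots of peach (Prunus persica), 4 tips of about 4 cm from a branch of each tree. The tested trees were 4 of weeping habit, numbered 1 to 4, whose branches bend downward, and they were set against 4 of standard habit, numbered 7 to 10. All 8 were mature, grown in a field, and taken from a single segregating F2 population whose parents were breeding material and not cultivars. Each library is 1 tree, so the p-values below measure the spread between trees, and apart from growth habit the labels give no genotype. The label of the tissue could not be checked against marker genes, because the table names genes by identifier only, and in bulk tips fewer cells of a type cannot be told apart from less RNA per cell.

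In an F2 population the grandparental chromosomes have been recombined, so alleles close to a chosen locus tend to travel with it, while alleles farther along the same chromosome separate from it in some trees. Weeping habit in peach is inherited as a recessive trait, and trees chosen for the habit therefore share the chromosome around the locus on both homologues. WEEP, the gene the study is about, encodes a protein with a sterile alpha motif, a domain known from proteins that bind one another. A gene whose expression depends on its own nearby sequence follows the allele that a tree carries at that gene, whereas a gene that responds to the habit follows the habit wherever it lies.

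WEEP lies outside the stretch at 15601137 to 15603955, and the members lie 2.00 to 6.36 Mb from its midpoint. It had 9, 6, 3 and 7 reads in weeping trees 1 to 4, against 1813, 1615, 1677 and 1711 in standard trees 7 to 10. The identifier of this gene was tied to the name WEEP from what is known of the study. Libraries held 17011614 to 21584724 reads in genes, so 3 reads, taken as the limit that a count of 0 allows, correspond to 0.139 to 0.176 CPM (counts scaled to 1000000 reads in genes). All standard libraries and those of weeping trees 1 and 2 were run in lane 6, per the file headers, while weeping trees 3 and 4 were run in lane 8.

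The stretch took 3.10 ± 0.0484% of all reads in weeping trees and 3.22 ± 0.0296% in standard trees (SD, n = 4 each). The weeping libraries ranged from 3.07 to 3.17% and the standard ones from 3.19 to 3.25%, with no overlap, and an exact two-sided permutation test gave p = 0.0286, the smallest p of this design. The member with the largest difference in CPM, at 20494737 to 20497858, was picked after its values were seen, and leaving it out had to narrow the gap. With its reads taken out the shares were 3.06 ± 0.0479% in weeping and 3.10 ± 0.0211% in standard trees, the groups overlapped, and the exact permutation test gave p = 0.20 (SD, n = 4 each).

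By edgeR's quasi-likelihood test, fitted over the whole table with Benjamini-Hochberg adjustment, 86 of the 633 tested members passed an adjusted p of 0.05. That is 13.6% of them, against 11.5% of the 18520 genes tested in all and 12.6% of the 1337 tested on the rest of scaffold 3. Of the 86, 37 were higher in weeping trees (5.85% of the members, with 5.33% over all genes) and 49 were lower (7.74%, with 6.18% over all genes). These shares lay near the background. The median log2 fold change, weeping over standard, was -0.01 over the members and 0.01 over all tested genes, and the median size regardless of sign was 0.23 in both. Within 2 Mb of WEEP, outside the stretch, 63 of 410 tested genes were called, or 15.4%. No difference between these shares was tested.

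Among larger changes the shares lay further above those over all tested genes, and nearer to those of other parts of scaffold 3. None of these differences was tested. Changes of at least 2-fold were called in 31 members, or 4.90%, against 3.83% of all tested genes. Of these, 9 were higher in weeping trees (1.42%, against 0.934% of all tested genes) and 22 lower (3.48%, against 2.9%). On the rest of scaffold 3 the 2-fold share was 4.49%, and within 2 Mb of WEEP it was 5.37%. Changes of at least 4-fold were called in 12 members, or 1.90%, against 0.767% of all tested genes. Of these, 4 were higher in weeping trees (0.632%, against 0.081% of all tested genes, 15 in number) and 8 lower (1.26%, against 0.686%). On the rest of scaffold 3 the 4-fold share was 1.05%, and within 2 Mb of WEEP it was 1.46%. In 133 members, or 21.0%, every weeping tree lay on one side of every standard tree, against 18.7% over all genes. On the rest of scaffold 3 this share was 20.2%, and within 2 Mb of WEEP it was 21.7%. The groups were also apart in 80 of the 86 called members and 29 of the 31 with a 2-fold change. Calls were made on the same trees and favour such genes, so these counts are no separate support. In the authors' deposited table there are 44 members (5.47%, against 4.46% of all listed genes) with a corrected p under 0.05, 20 higher and 24 lower. Of those 44, 36 were also called by edgeR, all in the same direction.

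Which members passed the threshold depended on the trees included, while the fold changes moved little when 1 tree was left out. Without weeping tree 2, 5 of the 86 members kept their call, without standard tree 8, 14, and without weeping tree 1, 20. Leaving out weeping tree 3, standard tree 10 or standard tree 7 kept 21, 24 and 25, while leaving out weeping tree 4 or standard tree 9 kept 82 and 79. The whole table behaved alike, with 20 genes called without weeping tree 2. In no fit that left out 1 tree did any of the 86 members change sign or move by more than 1.5-fold. Their median log2 fold change regardless of sign was 0.83 over all trees, 0.79 without weeping tree 2 and 0.76 to 0.91 over the fits that left out a tree. Of all 18520 tested genes, 19 kept their call whichever tree was left out. Of these, 8 lay on scaffold 3, and 5 of the 8 were members, out of 633 tested members and 1337 tested genes on the rest of the scaffold. The 5 lay at 17891798, 18199633, 18760652, 18829367 and 19991697, all before 20.1 Mb, too few to describe a change along the stretch.

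**Figure D1:**
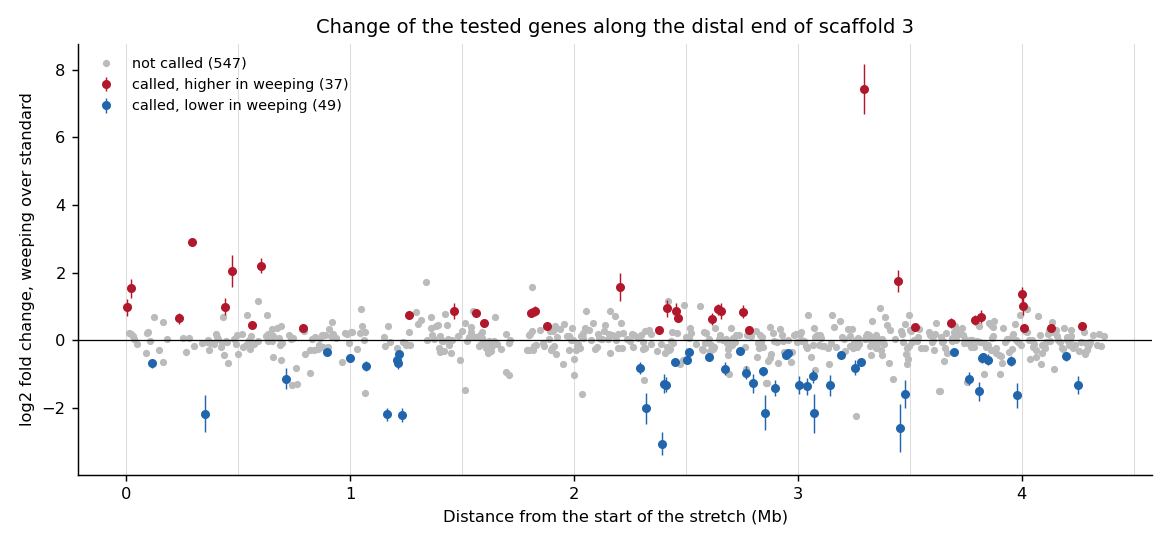
Fitted log2 fold change, weeping over standard, of the 633 tested members by distance in Mb from the start of the stretch. Red points are the 37 called higher, blue points the 49 called lower and grey points the rest; bars are standard errors, and grey lines mark steps of 0.5 Mb. The point above 7 is a gene without a read in any standard tree, whose fitted value depends on the prior count. Called genes are present in every step, of both signs in all but the fourth, where the 5 called genes are higher.

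Called genes were found in every step up to the end of the scaffold, at shares on either side of the 11.5% called over the whole table. In steps of 0.5 Mb from 17.6 Mb, 8 of 47, 6 of 62, 8 of 53 and 5 of 69 tested members were called, up to 19.6 Mb. The next steps held 11 of 75, 17 of 83, 12 of 94 and 12 of 88, and the last one, 0.37 Mb long, held 7 of 62. As shares these ran from 7.25% between 19.1 and 19.6 Mb to 20.5% between 20.1 and 20.6 Mb, with 11.3% in the last step. Calls of at least 4-fold numbered 3, 1, 2, 0, 2, 1, 3, 0 and 0 in the same steps, so none lay beyond 21.1 Mb. As shares of tested genes these were 6.38, 1.61, 3.77, 0, 2.67, 1.20, 3.19, 0 and 0%, against 0.767% of all tested genes. Without weeping tree 2, where 5 members and 20 genes over the whole table were called, the last 4 steps held none. At such low shares few calls or none fall in a step, so these counts describe no change towards the end.

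The balance of higher and lower calls differed between steps, and no test of a change along the scaffold was made. From 17.6 Mb the steps held 6 higher and 2 lower members, then 3 and 3, then 2 and 6. Between 19.1 and 19.6 Mb all 5 called members were higher. From 19.6 Mb the steps held 5 higher and 6 lower members, then 5 and 12, then 2 and 10, then 4 and 8, and the last step held 5 higher and 2 lower. The step from 20.1 to 20.6 Mb also had the most genes whose groups did not overlap, 26 of 83, or 31.3%, against 18.7% over all tested genes. In that step 39.8% of its tested genes, called or not, had a positive fold change, against 51.0% over the whole table.

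**Figure D2:**
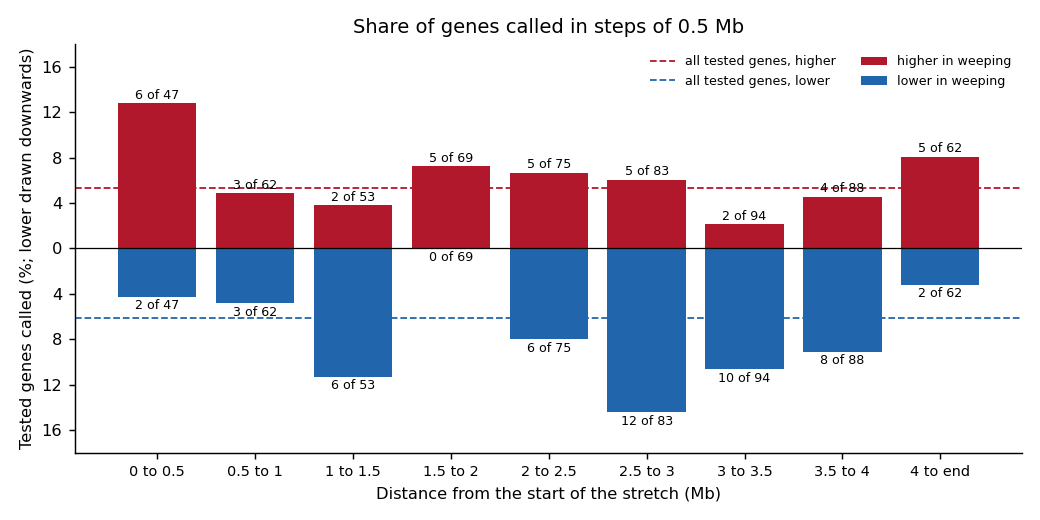
Share of tested members called in each 0.5 Mb step, with genes higher in weeping trees drawn upwards in red and genes lower in weeping trees drawn downwards in blue, and counts printed at the bars. Dashed lines are the shares over all 18520 tested genes, 5.33% higher and 6.18% lower. The first step has the largest share of higher genes, 6 of 47, and the sixth the largest share of lower ones, 12 of 83.

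The strong changes, those called at 2-fold or more, were spread unevenly. The first step held 4, the next steps 2 and 2, and the step from 19.1 to 19.6 Mb none. The steps from 19.6 Mb to 21.1 Mb held 5, 3 and 9, or 17 of the 31, and the last steps held 3 and 3. In order of the steps these were 8.51, 3.23, 3.77, 0, 6.67, 3.61, 9.57, 3.41 and 4.84% of the tested genes. Over all tested genes the share was 3.83%. The widest gap between neighbouring strong genes was 0.973 Mb, between the genes at 18829367 and 19802617, while the median distance between neighbours was 70.3 kb. Of the 22 strong decreases, 18 lay beyond 19.6 Mb and 10 between 20.1 and 21.1 Mb. The full steps from 19.6 Mb also held more tested genes, 75 to 94 each, against 47 to 69 before. Strong decreases made up 2.13, 1.61, 3.77 and 0% of tested genes in the steps before 19.6 Mb. From there they made up 5.33, 3.61, 7.45, 3.41 and 1.61%, against 2.9% of all tested genes. No difference between steps was tested. The strong increases lay in 2 parts, with 4 of the 9 before 18.6 Mb and 5 after 19.6 Mb. They made up 6.38% of tested genes in the first step and at most 3.23% in any other, against 0.934% of all tested genes.

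**Figure D3:**
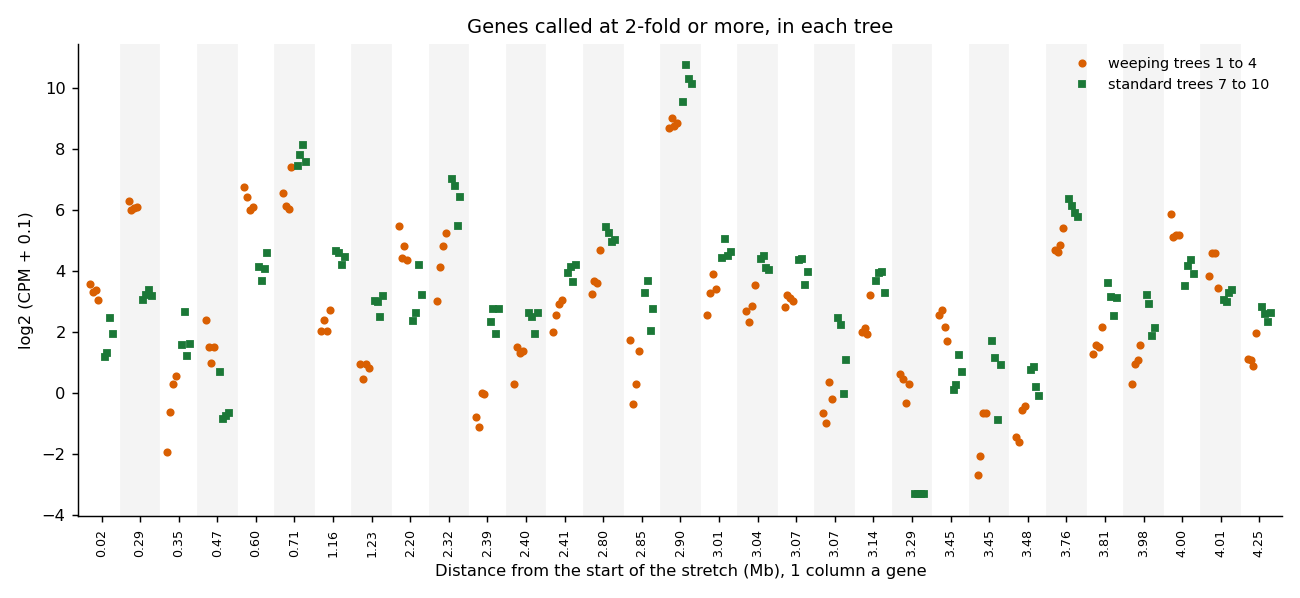
Level of the 31 members called at 2-fold or more in each tree, as log2 of CPM plus 0.1, with genes in order along the scaffold and labelled by distance in Mb from the start of the stretch. Orange circles are weeping trees 1 to 4 and green squares standard trees 7 to 10, in that order from left to right. In 29 of the 31 columns the circles and squares do not overlap, which the choice of called genes favours.

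Of the strong increases, the one with the smallest p was the gene at 17891798 to 17896397, identifier ppa019187m.g. It had 79.2, 63.5, 66.7 and 69.4 CPM in weeping trees 1 to 4, against 8.21, 9.25, 10.2 and 9.05 CPM in standard trees 7 to 10. The trees of each habit lay close together and far from the other habit. The mean was 7.58-fold higher in weeping trees, 69.7 ± 6.76 against 9.18 ± 0.826 CPM (SD, n = 4 each), and the fitted log2 fold change was 2.92 ± 0.10 (SE; edgeR's quasi-likelihood test, adjusted p 3.64e-06). The adjusted p stayed between 1.26e-05 and 9.93e-05 when any tree was left out. Only 51.3% of its reads had 1 position, so a near-identical copy may share them. On single-position reads alone the edgeR adjusted p was 3.54e-06.

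A second strong increase, the gene at 18199633 to 18202143 (ppa008330m.g), had 107, 87.2, 63.9 and 69.5 CPM in weeping trees, against 17.7, 12.8, 16.6 and 24.1 CPM in standard trees. Every weeping tree exceeded every standard tree by a wide margin. The log2 fold change was 2.20 ± 0.22 (SE), and the edgeR adjusted p was 0.0085, at most 0.0355 with any tree left out. Nearly all its reads, 99.97%, had a single position. Measured per length, it averaged 28.4 RPKM in weeping and 6.18 RPKM in standard trees (RPKM, reads scaled to gene span and mapped reads).

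The other increases near the start of the stretch were less even. The gene at 17620653 had 11.9, 9.87, 10.3 and 8.18 CPM in weeping trees, against 2.20, 2.41, 5.47 and 3.76 CPM in standard trees (log2 fold change 1.54, edgeR adjusted p 0.0208, at most 0.0657 with a tree left out). The gene at 18071176 had 5.23, 2.75, 1.87 and 2.73 CPM in weeping trees, against 1.503, 0.460, 0.497 and 0.544 CPM in standard trees (log2 fold change 2.06, edgeR adjusted p 0.0305, at most 0.0823 with a tree left out). Neither overlapped between habits, and in the second gene standard tree 7 stood above the other standard trees.

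Beyond 19.6 Mb an increase at 19802617 was carried by 44.7, 21.3, 28.1 and 20.6 CPM in weeping trees, against 5.10, 6.03, 18.2 and 9.15 CPM in standard trees (log2 fold change 1.57, edgeR adjusted p 0.0434, up to 0.108 with a tree left out). Standard tree 9 came close to the weeping trees there. The gene at 21044640 had 5.77, 6.47, 4.44 and 3.20 CPM in weeping trees, against 0.966, 1.09, 2.27 and 1.53 CPM in standard trees (log2 fold change 1.76, edgeR adjusted p 0.0208, up to 0.0687 with a tree left out). Both genes were higher in 4 of 4 weeping trees than in any standard tree.

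Near the end of the scaffold 3 adjoining tested genes, from 21601683 to 21610544, were all called higher. The first had 59.1, 34.4, 36.5 and 36.3 CPM in weeping trees, against 11.4, 17.7, 20.7 and 15.04 CPM in standard trees, with a log2 fold change of 1.36 and an edgeR adjusted p of 0.0162 that went to 0.0552 without weeping tree 2. The next, at 21604199, had 14.1, 23.9, 24.0 and 10.7 CPM in weeping trees, against 8.16, 7.87, 9.56 and 10.3 CPM in standard trees (log2 fold change 1.02, edgeR adjusted p 0.0398, up to 0.114 with a tree left out). Weeping tree 4 was barely above standard tree 10 in this gene. In the third, at 21608067, the log2 fold change was 0.36 and the adjusted p by edgeR was 0.0408.

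Among the strong decreases, the gene at 18760652 to 18763276 (ppa019352m.g) had 4.05, 5.19, 4.02 and 6.46 CPM in weeping trees, against 25.5, 24.3, 18.1 and 21.9 CPM in standard trees. The standard mean was 4.55 times the weeping mean, and no tree came near the other habit. The log2 fold change was -2.19 ± 0.18 (SE), and the edgeR adjusted p was 0.00342, at most 0.0281 with any tree left out.

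The gene at 18829367 to 18831840 (ppa016279m.g) had 1.83, 1.29, 1.82 and 1.66 CPM in weeping trees, against 7.94, 7.93, 5.58 and 8.95 CPM in standard trees. Its log2 fold change was -2.20 ± 0.21 (SE), and the edgeR adjusted p was 0.00566, at most 0.0310 with any tree left out. It closes a run of 4 adjoining tested genes from 18809760 that were all called lower, the longest such run in the stretch, over 22.1 kb. The other members of this run fell less, with the run's log2 fold changes lying between -2.20 and -0.40. In the first of them, at 18809760, weeping tree 4 had 347 CPM, slightly above the 346 CPM of standard tree 10, while the other weeping trees had 208 to 242 CPM and the other standard trees 387 to 405 CPM.

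The largest fitted decrease was that of the gene at 19991697 to 19993232, with 0.486, 0.367, 0.910 and 0.889 CPM in weeping trees, against 4.94, 6.61, 3.76 and 6.68 CPM in standard trees. The standard mean was 8.31 times the weeping mean, the log2 fold change was -3.05 ± 0.34 (SE), and the edgeR adjusted p was 0.0106, at most 0.0429 with any tree left out. Within 20 kb of it lay a pair of further decreases. The gene at 20002942 had a log2 fold change of -1.28 (edgeR adjusted p 0.0305) and that at 20008906 one of -1.31 (edgeR adjusted p 0.0174), whereas the tested gene between them, at 20005388, had -0.37 and an adjusted p of 0.135 by edgeR. In these 4 genes 90.5 to 93.6% of the reads had a single position.

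Over the whole stretch 13 of 632 pairs of neighbouring tested genes were both called, or 2.06%, 8 of them in the same direction, against 283 of 18480 pairs, or 1.53%, over all scaffolds, 196 of them in the same direction. Runs such as those at 18.81 and 21.60 Mb were therefore few.

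Most of the other strong decreases had trees that approached the other habit. The gene at 17948170 had 0.162, 0.551, 1.12 and 1.36 CPM in weeping trees, against 2.90, 6.21, 2.21 and 2.97 CPM in standard trees (log2 fold change -2.16, edgeR adjusted p 0.0397, up to 0.118 with a tree left out). The gene at 19918660, which overlaps another annotated gene, had 8.04, 17.4, 28.4 and 38.1 CPM in weeping trees, against 130, 110, 44.1 and 85.6 CPM in standard trees (log2 fold change -2.01, edgeR adjusted p 0.0316, up to 0.0989 with a tree left out). Weeping tree 4 and standard tree 9 were nearest to each other there. Because the counting is not stated to use strand, reads of overlapping genes may be shared.

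The gene at 20450309 had 3.24, 0.688, 1.12 and 2.49 CPM in weeping trees, against 9.61, 12.6, 3.98 and 6.68 CPM in standard trees (log2 fold change -2.13, edgeR adjusted p 0.0330, up to 0.0876 with a tree left out). Of its reads 78.0% had a single position. The abundant gene at 20494737 had 414, 526, 436 and 468 CPM in weeping trees, against 754, 1719, 1277 and 1119 CPM in standard trees (log2 fold change -1.40, edgeR adjusted p 0.0161, and 0.0576 without weeping tree 2). The weeping trees were close together and the standard trees were not. Per length it averaged 129 RPKM in weeping and 338 RPKM in standard trees.

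A pair of strong decreases overlapped between the habits, both through standard tree 9. The gene at 20672055 had 0.540, 0.413, 1.18 and 0.770 CPM in weeping trees, against 5.42, 4.66, 0.884 and 2.03 CPM in standard trees (log2 fold change -2.16, edgeR adjusted p 0.0451, up to 0.129 with a tree left out). The gene at 21054301 had 0.0540, 0.138, 0.535 and 0.533 CPM in weeping trees, against 3.17, 2.13, 0.442 and 1.78 CPM in standard trees (log2 fold change -2.58, edgeR adjusted p 0.0476, up to 0.135 with a tree left out). In each, standard tree 9 lay within the range of the weeping trees.

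Farther out, the gene at 21076288 had 0.270, 0.229, 0.589 and 0.652 CPM in weeping trees, against 1.61, 1.72, 1.05 and 0.841 CPM in standard trees (log2 fold change -1.59, edgeR adjusted p 0.0428, up to 0.119 with a tree left out). The gene at 21406369 had 2.32, 2.89, 2.73 and 4.38 CPM in weeping trees, against 12.1, 8.74, 5.69 and 8.56 CPM in standard trees (log2 fold change -1.51, edgeR adjusted p 0.0193, up to 0.0683 with a tree left out). The gene at 21575628 had 1.13, 1.84, 2.03 and 2.90 CPM in weeping trees, against 9.12, 7.53, 3.54 and 4.25 CPM in standard trees (log2 fold change -1.63, edgeR adjusted p 0.0309, up to 0.0948 with a tree left out). In all 3 the habits did not overlap, but the gap between the nearest trees was small beside the spread within the standard group.

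The strong change nearest to the end of the scaffold was a decrease at 21849164 to 21850268. It had 2.05, 2.02, 1.77 and 3.85 CPM in weeping trees, against 6.92, 5.98, 4.97 and 6.13 CPM in standard trees, with a log2 fold change of -1.31 ± 0.26 (SE) and an edgeR adjusted p of 0.0231, up to 0.0794 with a tree left out. The habits did not overlap there, 6.25 Mb from WEEP, as they did not in 18.7% of all tested genes. The 9 strong decreases outside these largest ones, between 18310480 and 21361792, had log2 fold changes from -1.35 to -1.06.

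Whether single trees left their habit along the stretch was described by placing each tree on a scale from 0, the mean log2 level of the other trees of its own habit, to 1, the mean of the other habit. The genes used for a tree were chosen from the other 7, which had to separate by habit with medians at least 2-fold apart. This left 36 to 64 members per tree, and a median near 0 means that the tree stayed with its habit. Each tree has its own set of genes, of 64 for weeping tree 4, 63 for standard tree 9 and 36 to 43 for the others. Genes that separate the other 7 trees by accident tend to place the left-out tree between the habits. Positions are thus partly set by the choice of genes. The gene sets overlap, the libraries are shared, and no test was made.

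The trees that lay between the habits were weeping tree 4 and standard tree 9. Weeping tree 4 had a median position of 0.52 over 64 members, and 33 of them, or 51.6%, lay past the midpoint. Standard tree 9 had a median of 0.47 over 63 members, with 30, or 47.6%, past the midpoint. The other weeping trees had medians of -0.29, -0.07 and 0.09 (trees 1, 2 and 3), and the other standard trees -0.05, -0.18 and 0.09 (trees 7, 8 and 10). Genes on the other scaffolds, chosen in the same way, placed the trees alike, at 0.60 for weeping tree 4 and 0.47 for standard tree 9. Past the midpoint there lay 62.2% of the genes for weeping tree 4 and 47.1% for standard tree 9.

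Neither tree moved steadily towards the other habit with distance. For weeping tree 4 the median was 0.65 from 17.6 to 19.6 Mb, 0.48 from 19.6 to 21.1 Mb and 0.56 beyond 21.1 Mb, over 24, 30 and 10 genes. For standard tree 9 it was 0.47, 0.47 and 0.48 over 19, 34 and 10 genes. For the other 6 trees the medians beyond 21.1 Mb lay between -0.46 and 0.19, over 6 to 8 genes each. Positions of 0.9 or more, near the level of the other habit, were found in 7 members for weeping tree 4, or 10.9%, against 14.6% on other scaffolds. For standard tree 9 they were found in 2 members, or 3.17%, against 14.3% on other scaffolds.

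**Figure D4:**
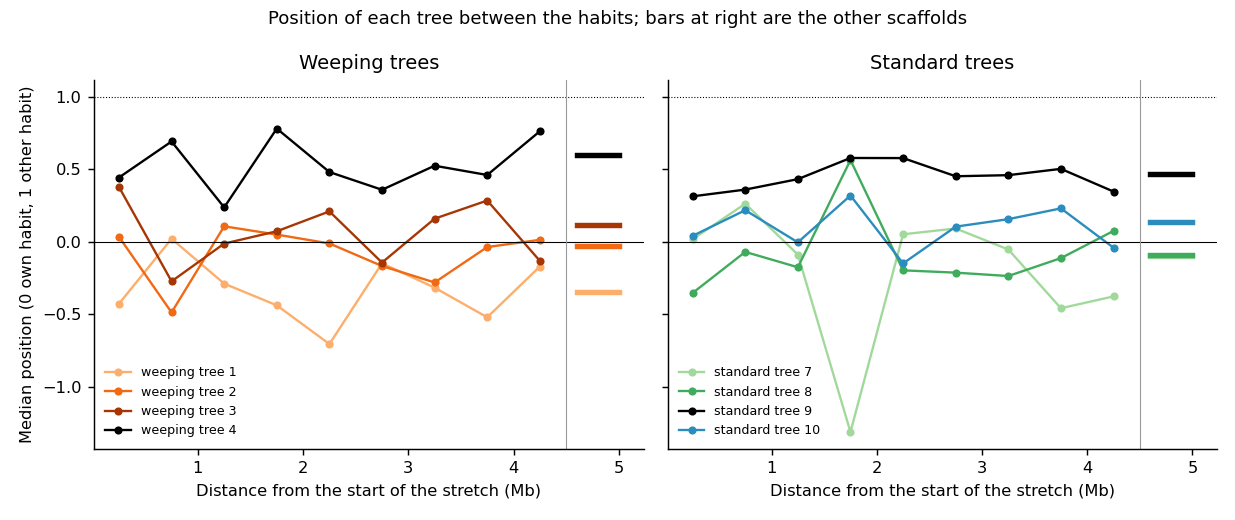
Median position of each tree in steps of 0.5 Mb, by distance in Mb from the start of the stretch, with weeping trees left and standard trees right; 0 is the tree's own habit and 1 the other. Bars at the right of each panel are the medians over genes of the other scaffolds. Weeping tree 4 and standard tree 9 are drawn in black; each point rests on 1 to 15 genes, and the step with the extreme value of standard tree 7 on 1 gene.

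Among the genes on which a tree was placed, members past the midpoint often followed one another, as on other scaffolds. Tested genes that were not chosen can lie between them. Past the midpoint lay 51.6% of the placed members for weeping tree 4 and 47.6% for standard tree 9. At such shares runs of at least 2 also arise in a random order, and an excess over that was not tested. For weeping tree 4, 29 of its 33 such members, or 87.9%, lay in runs of at least 2 neighbouring chosen genes, against 86.5% of such genes on other scaffolds. For standard tree 9 it was 21 of 30, or 70.0%, against 77.2% on other scaffolds. Runs reached 16 and 13 genes there, where far more genes were placed. The longest run of neighbouring chosen members in which weeping tree 4 lay past the midpoint held 7 genes from 18224073 to 18664766, with positions of 0.63 to 1.21. Further runs of this tree held 5 genes from 20737583 to 20858644, and 4 genes each from 19598419 to 19763026 and from 21604199 to 21850268. For standard tree 9 the longest run held 6 genes from 20015202 to 20293012, with positions of 0.57 to 0.78, and another held 4 genes from 19410871 to 19804218. Weeping tree 3 had a single run, of 2 genes from 21228411 to 21236157, and the remaining 5 trees had none. Between these runs both trees had members on their own side of the midpoint. The last run of weeping tree 4, of 4 genes, reached the last member on which it could be placed, with 0 placed members after it, and the last run of standard tree 9, of 2 genes from 21624106 to 21670968, was followed by 1.

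Abrupt differences between trees were sought as gaps, places in the order of the 8 levels where one tree and the next differed at least 2-fold, with the upper trees at 1 CPM or more. This description was added after the data had been seen. Such a gap was present in 37 members, or 5.85%, against 5.17% of all tested genes. It lay between the habits in 6 of the 37, and it set 1 tree apart from the other 7 in 18. The lone tree was a low weeping tree 1 in 9 of them, and in 6 further members weeping trees 1, 2 and 3 lay below the other 5 trees. Over the whole table the same patterns made up 191 and 89 of the 958 genes with such a gap.

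Gaps of at least 4-fold were rarer, with 5 members, or 0.790%, against 1.14% of all tested genes and 1.57% on the rest of scaffold 3. In 2 of the 5 the gap followed the habit. Of the 212 genes with such a gap in all, 7 followed the habit, and 6 of those 7, WEEP among them, lay on scaffold 3. Of the 18520 tested genes, 633 members and 1337 others lay on that scaffold. The member with the clearest gap by habit was that at 17891798, described above.

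The other member whose gap followed the habit was the gene at 20891811 to 20894057, 5.29 Mb from WEEP. It had 27, 28, 13 and 19 reads in weeping trees 1 to 4, against 0 in each of standard trees 7 to 10. With 87 reads in weeping trees and a limit of 3 reads over the standard group, it was at least 28.6-fold higher in weeping trees. The edgeR adjusted p was 0.0138, and 0.0552 without weeping tree 2. All its reads had a single position. The level was low in absolute terms, with 1.14 ± 0.326 CPM in weeping trees (SD, n = 4).

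Close to this gene, a pair of members broke the pattern in the same trees. The gene at 21022819 to 21023496 had 0, 0, 77 and 74 reads in weeping trees 1 to 4, against 80, 51, 114 and 99 in standard trees 7 to 10. Weeping trees 1 and 2 had no read, and weeping trees 3 and 4 were at the level of the standard trees. The edgeR test between habits gave an adjusted p of 0.493 and a log2 fold change of -1.13 ± 1.05 (SE). Its tested neighbours showed no such gap, with 1186, 862, 743 and 691 reads in weeping trees, against 684, 607, 716 and 753 in standard trees, at 21009813. At 21031830 there were 1043, 1362, 1173 and 1066 reads in weeping trees, against 1166, 1091, 882 and 1273 in standard trees.

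The gene at 20857751 to 20858644 had 2, 2, 22 and 41 reads in weeping trees, against 142, 85, 42 and 58 in standard trees. Weeping trees 1 and 2 were again nearly without reads, and weeping tree 4 was at the level of the lowest standard tree. The edgeR adjusted p between habits over all 8 trees was 0.103. The gene at 20891811, which lies between this pair, separated all 8 trees by habit.

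Among all genes, 15 had trees with 0 reads and at least 20 reads in every other tree, and the gene at 21022819 was the 1 member among them. It was also the single gene of the 15 in which the trees without reads were weeping trees 1 and 2. With up to 2 reads in the low trees 49 genes qualified, and those with weeping trees 1 and 2 as the low ones were the 2 members above. A gap of 2-fold or more below which only these trees lay was found in 49 genes of the table, 2 of them members. At 4-fold or more, the size by which the 2 members were found, it was present in 19 genes of the table. The pattern was therefore not particular to the stretch. Weeping trees 3 and 4 were the trees of lane 8, so among weeping trees the lane and this pairing cannot be told apart. The standard trees, all of lane 6, had reads in both genes.

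The last of the 5, the gene at 17691970 to 17692362, set 1 standard tree apart. It had 135, 101, 64.8 and 42.8 CPM in weeping trees, against 9.71, 73.8, 145 and 67.3 CPM in standard trees, with standard tree 7 far below all others. The edgeR adjusted p between habits was 0.847. This gene lies in the first step of the stretch, and the members low in weeping trees 1 and 2 lie beyond 20.6 Mb. All were picked after the values had been seen, and no link between position and such gaps was tested.

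**Figure D5:**
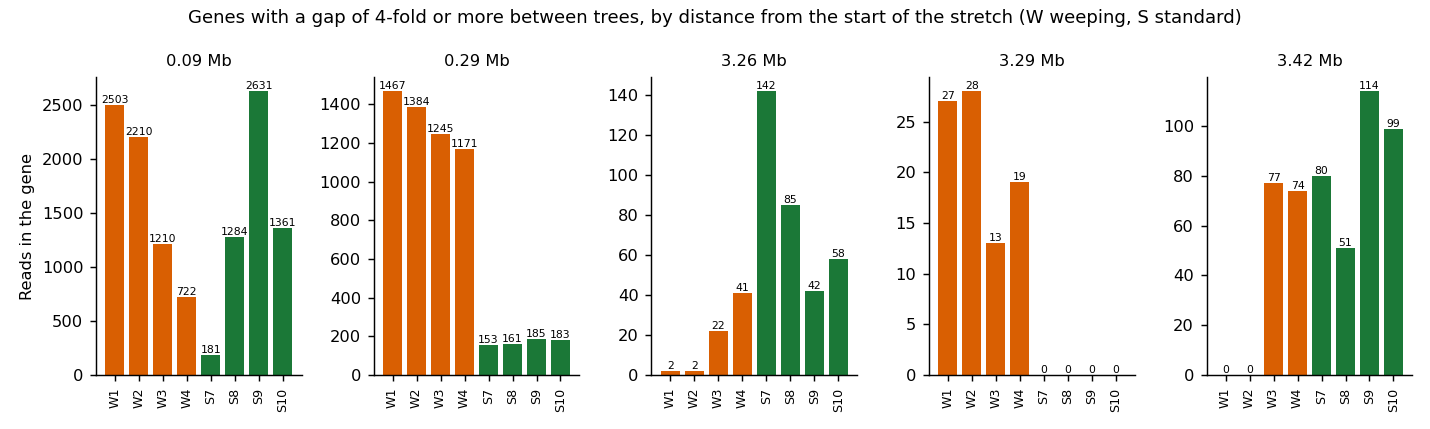
Reads in each tree for the 5 members with a gap of 4-fold or more between trees, in order along the scaffold and titled by distance in Mb from the start of the stretch. Orange bars are weeping trees 1 to 4 and green bars standard trees 7 to 10. The second and the fourth gene separate by habit, the third and the fifth are low in weeping trees 1 and 2, and the first is low in standard tree 7.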

How the data were processed

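The deposited table holds, per the file headers, 2 kinds of read count for each gene, total exon reads, in which multiply placed reads are included, and unique exon reads. It also holds the authors' RPKM, and their p-value, corrected p-value and signed fold of weighted proportions, used here as a score of direction, all from the test its columns name Baggerley's. Reads were trimmed, per the file headers; the sources used here do not give the aligner, the build or the annotation. For all 804 members the length is the whole gene span. Columns were matched to trees by habit and tree number, and 125 other columns were not used. Start positions, taken to count from 0 in the table, are given counting from 1. None (0) of the 27864 identifiers matched the RefSeq table, so genes are given by position, at most 2 identifiers are printed per direction, and no sequence is shown.

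Total counts entered edgeR 4.0.16 (R 4.3.3), over all 8 libraries (filterByExpr with a minimum count of 10, TMM, quasi-likelihood F-test, Benjamini-Hochberg over 18520 genes, adjusted p of 0.05). CPM use TMM-scaled library sizes. The common dispersion was 0.0475. On simulated counts for 18372 genes with 198 changed, edgeR found 60.5% of the genes changed 2-fold and 96.6% of those changed 4-fold, with 11 false calls among 163. Tree positions and gaps were taken on log2 CPM plus 0.1. DESeq2 1.42.0 and limma-voom (limma 3.58.1) were among the alternatives. The SE of a log2 fold change was taken as its size divided by the square root of the quasi-likelihood F, so it is approximate. The SD and SE values include the spread between trees. The limit of 3 reads covers counting error at a count of 0 only, and the 87 reads of the gene at 20891811 were taken as counted.

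The rule for values in all trees took up to 12 members with the largest called change in each direction, the 2 of smallest p each way, the strong change nearest the end, genes on in one habit only (at most 3 reads against at least 20; no member met it), and runs past the midpoint. The gap and absence descriptions, and the genes named through them, came after the values had been seen. The members and rules were chosen with earlier results of these data known.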

Additional observations from a re-analysis of the deposited data

Results flagged for a closer look

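Among the members called at 2-fold or more and the 3 further genes with a wide gap, 4 of 68 groups of 4 trees held a tree set apart from the other 3, a share near the 5% that chance gives. The gene at 18071176 to 18072210 had 1.503 CPM in standard tree 7, with 0.4598 to 0.5441 CPM in the other standard trees. At 20742189 to 20742716 weeping tree 4 had 9.302 CPM and the other weeping trees 3.748 to 4.269 CPM. At 21601683 to 21603384 weeping tree 1 had 59.09 CPM and the others 34.38 to 36.52 CPM. At 21849164 to 21850268 weeping tree 4 had 3.851 CPM and the others 1.767 to 2.05 CPM.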

How the results depend on the processing

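DESeq2 called 154 members (69 higher and 85 lower) and 3872 genes in all, where edgeR called 86 and 2131. A 2-fold minimum left 31 members (9 higher, 22 lower) and 710 genes. Within lane 6, 305 members did not overlap between habits, or 47.7% of those tested, against 41.9% of all tested genes; 133 did so over all trees, and fewer trees are compared within the lane. With each tree left out in turn, called members ranged from 5 to 155 (higher from 2 to 74, lower from 3 to 98) and genes over the whole table from 20 to 3923, lowest without weeping tree 2 and highest without weeping tree 4; the higher members alone were highest without standard tree 9. The log2 fold change of the gene at 17691970 ran from -0.15 to 0.78, turning negative without weeping tree 1 (-0.08) and standard tree 7 (-0.15), and was called in none of these fits. The gene at 20857751 was called by DESeq2 (adjusted p 0.0397) and limma-voom (0.0478). By edgeR it was called within lane 6 (0.0160) and without weeping tree 4 (0.0281), and in no other setting. The gene at 21022819 was called within lane 6 alone (log2 fold change -9.47, edgeR adjusted p 0.0114). Within that lane the weeping group is weeping trees 1 and 2, the trees low in both genes. RLE scaling, no filter, a minimum count of 50, limma-voom, single-position reads, lane 6 alone and moving the boundary by 0.5 Mb kept the count of called members within 1.5 times the 86. Fold changes of some called members moved further within lane 6, such as that at 21054301, from -2.58 to -4.17 in log2. Others moved little there, such as that at 17891798, from 2.92 to 2.95. Median tree positions moved by less than their spread with RLE scaling, single-position reads or a 1.5-fold limit. A minimum count of 50 left 7 of the 34 genes shown untested. No paired analysis was possible because the tree numbers are not shared between the habits. With 4 trees each, low members such as that at 20891811 are limited by depth. The causes of these shifts were not tested.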
